A study of Mus musculus with 12 samples.

Results

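A set of 10 genes of the tumor necrosis factor (TNF) receptor superfamily, which act as costimulatory or TNF receptors of regulatory T cells (Treg cells), was followed across lymph node and tumor libraries. They are Tnfrsf4 (OX40), Tnfrsf8 (CD30), Tnfrsf9 (4-1BB), Tnfrsf18 (GITR), Tnfrsf25 (DR3), Tnfrsf1a (TNFR1), Tnfrsf1b (TNFR2), Cd27, Cd40 and Tnfrsf14 (HVEM). They were chosen by name from this family as receptors of Treg cells, and 18 other family genes were listed apart. All 10 were found among the 55413 genes of the deposited tables and passed the filter on low counts. The 12 libraries are of 3 kinds. Lymph node Treg (n = 4) are total Treg cells of tumor-free mice. The other libraries, called pTreg (n = 3) and tTreg (n = 5) below, were sorted from tumor-infiltrating CD4+ T cells 18 days after Hepa1-6 cells, a mouse hepatoma line, were given to TCRbd-/- mice, which lack T cells but keep other leukocytes. Those hosts had received, 3 days before the tumor, thymus-derived Treg cells of CD45.1 Foxp3YFP-cre mice. Conventional Foxp3- CD4+ cells and CD8+ cells of CD45.2 Foxp3YFP-cre mice were given with them, at 1 to 10 to 8. pTreg cells are the Treg cells that arise outside the thymus from conventional CD4+ T cells, and tTreg cells are those of thymic origin. Foxp3YFP-cre is an allele that marks cells using the Foxp3 promoter. Every sample carries the same genotype label, which names Foxp3YFP-cre and TCRbd-/- mice together. The sources used here do not give age, pooling of animals or whether libraries came from separate mice, so p-values measure the spread between libraries, which may be technical.

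Receptors of this family bind trimeric ligands and recruit TRAF adaptor proteins, which lead to NF-kB. A few, such as TNFR1 and DR3, carry a death domain and can also engage TRADD. Treg cells are known for high resting levels of GITR, OX40 and TNFR2, and 4-1BB rises on T cells after antigen receptor stimulation. CD40 is chiefly a receptor of B cells, dendritic cells and macrophages, and TNFR1 is found on most cell types.

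Of the 10 genes 7 lie on chromosome 4 (GRCm38, GENCODE vM21). Tnfrsf4 (156013843 to 156016612, plus strand) and Tnfrsf18 (156026164 to 156028895, plus strand) are separated by 9551 bp, and Tnfrsf1b (145213463 to 145246870, minus strand) and Tnfrsf8 (145267137 to 145315164, minus strand) by 20266 bp. Tnfrsf9 (150914562 to 150946102), Tnfrsf25 (152115934 to 152120119) and Tnfrsf14 (154921933 to 154928563) are on the same chromosome. Cd27 (125232622 to 125237010) and Tnfrsf1a (125349362 to 125362484) are on chromosome 6, and Cd40 (165055627 to 165072948) is on chromosome 2. Vamp1 overlaps Cd27 on the other strand, Camta1 overlaps Tnfrsf9 and the antisense gene Gm16008 overlaps Tnfrsf18. The sources used here do not say whether counting used strand, so reads of these overlaps cannot be told apart. Vamp1 read 73.4 ± 2.05 CPM (counts scaled to the library total, mean ± SD) in lymph node libraries, 18.8 ± 1.16 in pTreg and 16.6 ± 0.778 in tTreg. Camta1 and Gm16008 did not exceed 9.26 CPM in any library.

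Upstream sequence is shown for 4 members, because Cd27 and Tnfrsf25 were the only members lower in both tumor groups both by CPM and per count of the pan-T genes described below, and because the neighbours Tnfrsf1b and Tnfrsf8 had unlike changes. Each is the 250 bases before a RefSeq start (GRCm38.p6), written 5′ to 3′ on the gene's strand, and none of these windows holds an annotated exon. Capitals mark a match to any of 8 motifs searched on both strands.
Cd27, chr6:125237028-125237277, minus strand: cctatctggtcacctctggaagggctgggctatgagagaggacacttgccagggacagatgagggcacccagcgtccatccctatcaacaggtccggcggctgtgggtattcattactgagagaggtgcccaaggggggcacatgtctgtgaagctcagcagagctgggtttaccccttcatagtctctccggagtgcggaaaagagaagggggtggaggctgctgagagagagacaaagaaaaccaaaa
Tnfrsf25, chr4:152115684-152115933, plus strand: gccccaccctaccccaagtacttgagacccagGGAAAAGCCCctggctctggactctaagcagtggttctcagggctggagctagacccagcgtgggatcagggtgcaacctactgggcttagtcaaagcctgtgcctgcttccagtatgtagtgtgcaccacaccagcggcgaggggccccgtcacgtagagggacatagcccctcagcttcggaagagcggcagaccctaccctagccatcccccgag
Tnfrsf1b, chr4:145246871-145247120, minus strand: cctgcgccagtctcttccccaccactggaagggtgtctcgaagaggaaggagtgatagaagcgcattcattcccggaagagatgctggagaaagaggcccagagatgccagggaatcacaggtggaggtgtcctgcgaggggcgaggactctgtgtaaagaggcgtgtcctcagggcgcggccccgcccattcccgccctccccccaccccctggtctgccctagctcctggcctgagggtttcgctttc
Tnfrsf8, chr4:145315165-145315414, minus strand: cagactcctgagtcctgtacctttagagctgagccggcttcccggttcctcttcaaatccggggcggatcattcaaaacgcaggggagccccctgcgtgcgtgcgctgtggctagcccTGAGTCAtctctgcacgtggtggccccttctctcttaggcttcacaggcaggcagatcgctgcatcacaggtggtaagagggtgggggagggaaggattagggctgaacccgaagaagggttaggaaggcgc

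The motifs were an NF-kB form with GGG and TTTCC around any 2 bases, a further NF-kB form GGAATTTCC, TGANTCA (AP-1), CCGGAAGT (ETS), TGTGGTT (RUNX), TGTTTAC (forkhead), GGGGCGGGG (GC box) and TATAAA. No motif overlapped another in the members' windows. The Tnfrsf25 window shown holds GGAAAAGCCC, a match to the first NF-kB form on the opposite strand 218 to 209 bases before the start. Tnfrsf25 has a further RefSeq start, whose window (chr4:152116093-152116342) holds a Tnfrsf25 exon and no match. The Tnfrsf8 window holds TGAGTCA 132 to 126 bases before its start. That NF-kB form was present in 1.41% and TGANTCA in 6.75% of all 32851 promoter windows. Tnfrsf9 has a pair of RefSeq starts, and the window of the downstream start holds GGGGATTTCC 43 to 34 bases and TGAGTCA 15 to 9 bases before it. That window also holds a Tnfrsf9 exon, and the window of the upstream start holds no match. No match to any of the 8 motifs was found in the windows of Tnfrsf4, Tnfrsf18, Tnfrsf1a, Tnfrsf1b, Cd27 and Tnfrsf14, and no window was given for Cd40. Of these windows, those of Tnfrsf18, Tnfrsf1a and Tnfrsf14 hold exon sequence of their own gene. The Tnfrsf18 window also holds exon sequence of Gm16008, and the Tnfrsf4 window that of Sdf4.

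Library totals were 14573864 to 17323894 counts for lymph node Treg, 17964262 to 18180959 for pTreg and 18107272 to 18510923 for tTreg. T cell transcripts made up unequal shares of them. The summed level of 18 pan-T genes (T cell receptor, CD3 and proximal signalling genes) was 6621 ± 76.6 CPM for lymph node Treg, 1342 ± 12.1 for pTreg and 134 ± 3.04 for tTreg. Foxp3, the defining gene of Treg cells, read 441 ± 11.1, 20.3 ± 0.583 and 8.74 ± 0.478 CPM in that order. Summed macrophage and monocyte markers (11 of 11 found, none at 0) ranged over 48.3 to 57.5 CPM, 9790.2 to 9827 and 9492 to 10072, so in both tumor groups they exceeded the pan-T sum. Hepatoma or hepatocyte markers ranged over 7.44 to 9.53, 5386 to 5755 and 7956 to 8306 CPM, with Apoa2 and Fgb at 0 in lymph node libraries and Serpina1a at 0 in both tumor groups. For this reason each level was taken both as CPM and as counts per 100 pan-T counts. Fold changes and calls given below as by CPM come from the edgeR fit, which corrects library totals by TMM factors. They differ somewhat from ratios of the printed CPM. For Tnfrsf4 in pTreg against lymph node Treg the fit gave 3.97-fold lower and the ratio of mean CPM 4.27-fold lower. The part of these other cells in the results was not tested beyond that second scale. In bulk libraries fewer cells of a type and less RNA per cell cannot be told apart.

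**Figure D1:**
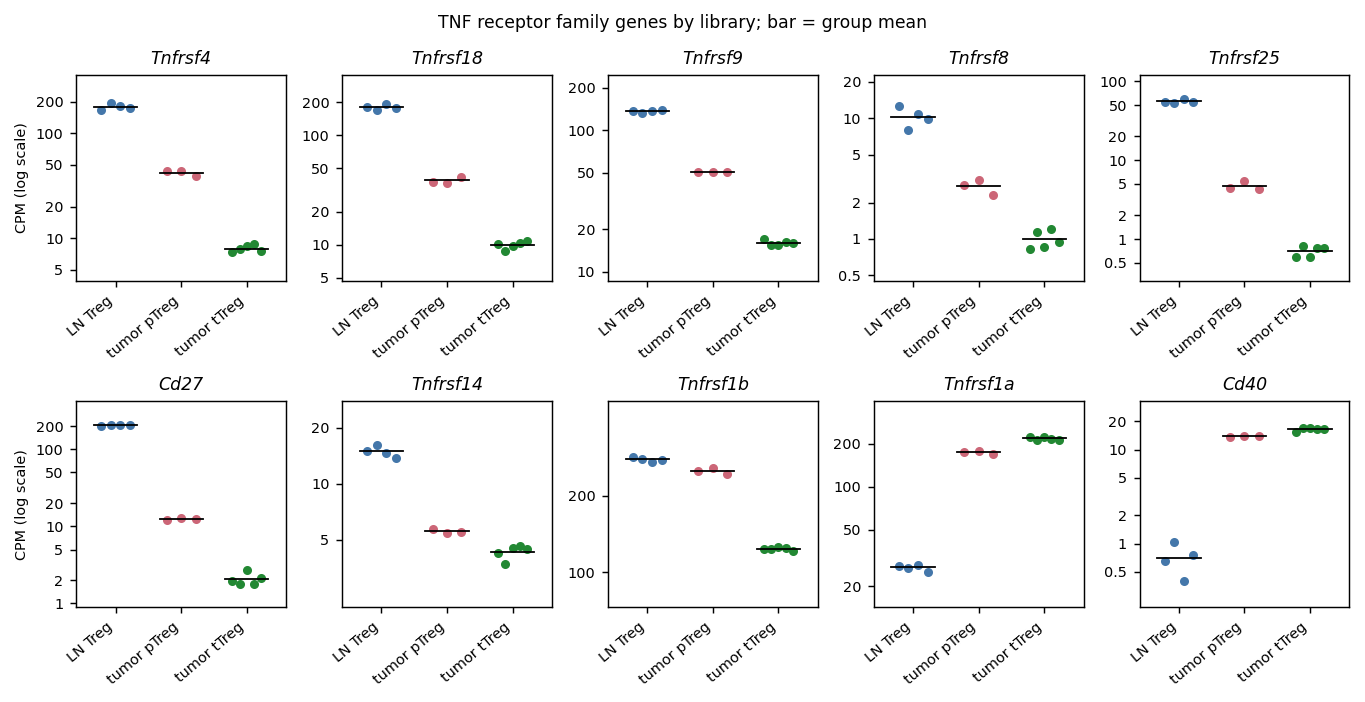
CPM on a log axis for each of the 10 receptor genes, with 1 point per library and a bar at the group mean. Tnfrsf4, Tnfrsf18, Tnfrsf9, Tnfrsf8, Tnfrsf25, Cd27 and Tnfrsf14 step down from lymph node Treg (n = 4) to tumor pTreg (n = 3) and tumor tTreg (n = 5), Tnfrsf1b is near level in the first 2 groups, and Tnfrsf1a and Cd40 are higher in both tumor groups; per pan-T count the order of groups differs for all but Tnfrsf1a and Cd40.

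Of the 4 receptors that T cells raise on activation, OX40, GITR, 4-1BB and CD30, all 4 were lower in tumor libraries than in lymph node Treg by CPM, yet per pan-T count none was called lower in either tumor group. Of all genes tested 39.8% were called lower in pTreg and 42.3% in tTreg by CPM, and 3.97% and 0.968% per pan-T count, so the latter count of 0 is near the background. Tnfrsf4 encodes OX40, a costimulator of effector and regulatory T cells. It read 167, 192, 183 and 174 CPM in the 4 lymph node libraries, 43.7, 43.3 and 38.9 in pTreg, and 7.33, 7.81, 8.37, 8.71 and 7.51 in tTreg. The 3 groups did not overlap. By CPM it fell 3.97-fold in pTreg (log2 fold change -1.99, standard error 0.0474, edgeR quasi-likelihood adjusted p = 4.61e-25) and 21.02-fold in tTreg (adjusted p = 1.18e-32). Per 100 pan-T counts Tnfrsf4 read 2.704 ± 0.148 in the lymph node, 3.13 ± 0.207 in pTreg and 5.92 ± 0.371 in tTreg. On that scale it was higher in pTreg by a log2 fold change of 0.21 (adjusted p = 0.000366), with the ranges of these libraries overlapping, and in tTreg by 1.13 (adjusted p = 3.67e-17). Per pan-T count 91.4% of all genes were called higher in pTreg and 96.8% in tTreg. The median gene rose there by log2 fold changes of 2.31 and 5.63, and all 4 receptors lay below it.

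Tnfrsf18, the gene of GITR and the neighbour of Tnfrsf4, had CPM close to those of Tnfrsf4 in every group. By FPKM, which takes account of transcript length, it was lower than Tnfrsf4 in lymph node Treg (means 208 and 272) and pTreg (44.7 and 65.1). Those ranges did not overlap, whereas the tTreg ranges did. Tnfrsf18 read 180.2 ± 9.55 CPM in lymph node libraries, 38.8 ± 2.54 in pTreg and 9.98 ± 0.825 in tTreg, with no overlap. The fall by CPM was 4.32-fold in pTreg and 16.9-fold in tTreg (edgeR adjusted p = 1.96e-25 and 3.53e-32). Per 100 pan-T counts the lymph node libraries read 2.76, 2.56, 2.87 and 2.695, and the pTreg libraries 2.84, 2.73 and 3.10. These ranges overlapped, and the difference was not called (log2 fold change 0.09, standard error 0.0522, adjusted p = 0.107). Without lymph node replicate 3 or pTreg replicate 2 it was called, at adjusted p = 0.0457 and 0.0462. The tTreg libraries stood higher on this scale, at 7.43 ± 0.5003 (log2 fold change 1.45 against the lymph node).

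Tnfrsf9 encodes 4-1BB, which marks recently stimulated T cells. It read 137, 133, 137 and 138 CPM in lymph node Treg, 50.9, 50.9 and 50.9 in pTreg, and 17.1, 15.5, 15.3, 16.2 and 16.0 in tTreg. By CPM it fell less than the other 3 genes in the edgeR fit, 2.49-fold in pTreg and 7.95-fold in tTreg (adjusted p = 1.03e-23 and 1.63e-32). Per pan-T count it had the largest rise of these 4 genes in either tumor group. It read 2.06 ± 0.0489 per 100 pan-T counts in the lymph node, 3.79 ± 0.0339 in pTreg and 11.95 ± 0.616 in tTreg, without overlap. The log2 fold changes were 0.88 (adjusted p = 2.63e-19) and 2.54 (adjusted p = 7.65e-32).

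Tnfrsf8, the CD30 gene, was the least abundant of the 4, with 15 to 22 counts per library in tTreg. The lymph node libraries read 12.5, 8.03, 10.8 and 9.82 CPM, the pTreg libraries 2.81, 3.06 and 2.32, and the tTreg libraries 0.821, 1.15, 0.864, 1.20 and 0.939. The groups did not overlap. By CPM it was 3.52-fold lower in pTreg and 9.66-fold lower in tTreg than in lymph node Treg (edgeR adjusted p = 2.93e-12 and 5.54e-18). Per pan-T count the rise in pTreg was small and overlapping (log2 fold change 0.38, adjusted p = 0.0241). It lost the call without lymph node replicate 2 (0.28, adjusted p = 0.0694), without pTreg replicate 1 (0.35, adjusted p = 0.0793) or replicate 2 (0.30, adjusted p = 0.139), and with the receptor constant genes left out of the pan-T list (0.32, adjusted p = 0.0569).

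Cd27 and Tnfrsf25 behaved unlike these 4 genes. Cd27 is a costimulator of naive and memory T cells that binds CD70, and Tnfrsf25 encodes DR3, a death domain receptor for TL1A that can expand Treg cells. Cd27 read 199, 208, 208 and 209.4 CPM in lymph node Treg, 12.2, 12.9 and 12.6 in pTreg, and 1.97, 1.80, 2.701, 1.81 and 2.15 in tTreg. Each tumor library was far below each lymph node library. The fall was 15.3-fold in pTreg (log2 fold change -3.93, standard error 0.0487, edgeR adjusted p = 5.96e-32) and 91.9-fold in tTreg (log2 fold change -6.52, adjusted p = 3.65e-36). Tnfrsf25 read 55.1, 52.9, 60.3 and 55.4 CPM in lymph node Treg, 4.4002, 5.51 and 4.31 in pTreg, and 0.602, 0.820, 0.594, 0.767 and 0.773 in tTreg. That is 10.97-fold and 72.9-fold lower (adjusted p = 1.41e-25 and 3.30e-30), and in tTreg it rests on 11 to 15 counts a library.

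Both genes were lower in tumor libraries per pan-T count as well. Cd27 fell from 3.11 ± 0.0758 per 100 pan-T counts in the lymph node to 0.935 ± 0.0182 in pTreg and 1.56 ± 0.269 in tTreg. Its log2 fold changes on this scale were -1.74 (edgeR adjusted p = 3.31e-24) and -0.999 (adjusted p = 3.21e-12). Tnfrsf25 fell from 0.845 ± 0.0418 to 0.353 ± 0.0472 and 0.530 ± 0.0800, with log2 fold changes of -1.26 (adjusted p = 3.97e-15) and -0.67 (adjusted p = 0.000200). No tumor library reached the lowest lymph node library for either gene.

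**Figure D2:**
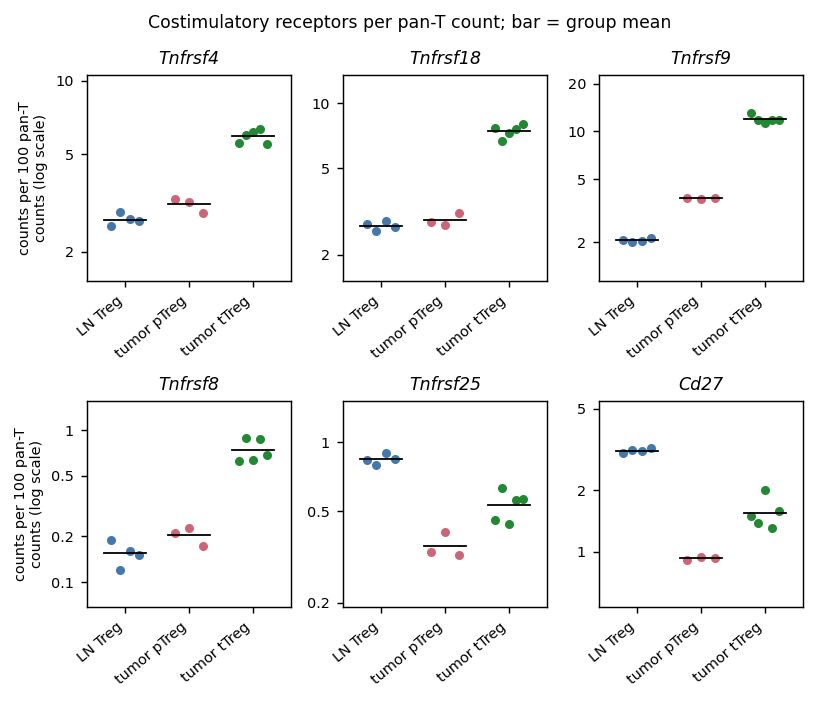
Counts per 100 pan-T counts on a log axis for 6 costimulatory receptor genes, with 1 point per library and a bar at the group mean. Tnfrsf4, Tnfrsf18, Tnfrsf9 and Tnfrsf8 stand highest in tumor tTreg, whereas Cd27 and Tnfrsf25 stand highest in lymph node Treg and lowest in tumor pTreg; by CPM all 6 are highest in lymph node Treg.

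Tnfrsf14 encodes HVEM, a receptor for LIGHT that also engages BTLA and CD160. It read 15.1, 16.2, 14.7 and 13.7 CPM in lymph node Treg, 5.67, 5.46 and 5.48 in pTreg, and 4.21, 3.72, 4.48, 4.6005 and 4.47 in tTreg. The 3 groups did not overlap. By CPM it was 2.496-fold lower in pTreg and 3.23-fold lower in tTreg than in lymph node Treg (edgeR adjusted p = 8.12e-14 and 1.36e-17). Per pan-T count it was higher, by log2 fold changes of 0.88 and 3.83, beside 2.31 and 5.63 for the median gene.

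The TNF receptors proper went apart. Tnfrsf1b encodes TNFR2, the TNF receptor that favours Treg expansion and lacks a death domain. It read 285, 280.4, 273 and 277 CPM in lymph node Treg, 250.3, 257 and 244 in pTreg, and 123, 123, 126, 125 and 121 in tTreg. Between lymph node Treg and pTreg the CPM did not overlap, but the edgeR test with TMM factors did not call the difference (log2 fold change -0.05, standard error 0.0283, adjusted p = 0.104). It was called lower with library totals as the scale (-0.15, adjusted p = 1.73e-05), with RLE factors (-0.07, adjusted p = 0.0208) and with DESeq2 (-0.07, adjusted p = 0.0196). In tTreg it was 2.11-fold lower by CPM (adjusted p = 4.06e-25). Per pan-T count it was higher in both tumor groups, with log2 fold changes of 2.15 and 4.45, beside 2.31 and 5.63 for the median gene.

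Tnfrsf1a, the gene of TNFR1, rose in the tumor libraries on either scale. It read 27.8, 27.03, 28.4 and 25.4 CPM in lymph node Treg, 176, 177 and 169.5 in pTreg, and 222, 213, 224, 217 and 214 in tTreg. Each tumor library was above each lymph node library. These were rises of 6.89-fold and 8.58-fold by CPM (edgeR adjusted p = 7.32e-31 and 3.22e-33). Cd40 was close to absent from lymph node Treg, with 7 to 15 counts a library. Its CPM was 0.647, 1.03, 0.404 and 0.755 there, 13.7, 13.8 and 13.995 in pTreg, and 15.4, 17.1, 17.02, 16.4 and 16.7 in tTreg. Here too the tumor libraries all lay above the lymph node libraries. The rises were 21.1-fold and 25.2-fold (adjusted p = 7.52e-22 and 7.79e-24).

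Markers of other cells also differed between lymph node and tumor libraries, not always in the direction of the receptors. Macrophage and monocyte markers summed to 53.0 ± 4.23 CPM in lymph node libraries, 9812 ± 19.4 in pTreg and 9838 ± 216 in tTreg, with Apoe and Lyz2 the most abundant. Dendritic cell markers (8 of 8 found, none at 0) ranged over 12.1 to 12.8, 282 to 299 and 317 to 328 CPM, in the tumor mostly from Itgax. Of these 8 genes 5 were higher and 2, Siglech and Flt3, lower in pTreg than in lymph node Treg, and 5 were higher and 1, Siglech, lower in tTreg. B cell markers (7 of 7 found, none at 0) summed to less in the tumor, with 12.99 to 14.99 CPM in lymph node libraries, 3.60 to 4.34 in pTreg and 3.11 to 4.11 in tTreg. Per 100 macrophage marker counts Tnfrsf1a read 1.73 to 1.80 in pTreg and 2.16 to 2.34 in tTreg, and Tnfrsf1b 2.497 to 2.62 and 1.23 to 1.3002. Fibroblast markers differed more between the tumor groups, with sums of 1.65 to 3.36, 131 to 153 and 659.9 to 783 CPM (7 of 7 found, with Col3a1, Lum and Pdgfra at 0 in the lymph node). Between pTreg and tTreg 6 of the 7 were lower and 1, Pdgfrb, higher in pTreg, with a median log2 fold change of -2.85. The part of these cells in the levels of Tnfrsf1a, Tnfrsf1b, Cd40 and Tnfrsf14 was not tested.

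Counted together, 7 of the 10 receptors were lower and 2 higher in pTreg than in lymph node Treg by CPM. Of the 15705 genes tested 39.8% were called lower, 47.6% higher and 87.5% in either direction. In tTreg 8 receptors were lower and 2 higher, beside 42.3% of genes lower, 48.1% higher and 90.3% in either direction. So many genes were called that being called says little about a receptor. The median log2 fold change of the 10 was -1.57 in pTreg and -3.13 in tTreg, beside 0.12 and 0.10 for all genes. Per pan-T count 7 were higher and 2 lower in pTreg, with 91.4% of genes called higher, 3.97% lower and 95.4% in either direction. In tTreg 8 were higher and 2 lower, with 96.8% and 0.968% of genes so called and 97.8% in either direction. On this scale the median gene shifted by log2 fold changes of 2.31 and 5.63. Tnfrsf4, Tnfrsf18, Tnfrsf9, Tnfrsf8, Tnfrsf25, Cd27, Tnfrsf14 and Tnfrsf1b all lay below the median gene, and Tnfrsf1a and Cd40 above it. The comparisons share their lymph node libraries.

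The tumor groups were also compared with each other. By CPM 8 of the 10 receptors were higher and 2 lower in pTreg, where 26.8% of all genes were called higher, 25.3% lower and 52.1% in either direction. Tnfrsf25 differed most, 6.65-fold higher (log2 fold change 2.73, standard error 0.168, edgeR adjusted p = 4.64e-14). Cd27 followed at 6.02-fold, Tnfrsf4 at 5.30-fold, Tnfrsf18 at 3.91-fold, Tnfrsf9 at 3.19-fold, Tnfrsf8 at 2.74-fold and Tnfrsf1b at 2.04-fold, with adjusted p from 6.20e-23 for Tnfrsf9 to 1.50e-06 for Tnfrsf8. None of these 7 overlapped between the groups, but the share of all genes without overlap was not counted, so this says little about them. Tnfrsf1a was 1.246-fold lower in pTreg (adjusted p = 2.97e-10).

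The smallest differences between the tumor groups were not called in every fit. Tnfrsf14 was 1.29-fold higher and Cd40 1.19-fold lower in pTreg by counts (edgeR adjusted p = 0.00449 and 0.00428). With limma on log2(FPKM + 1), which changes both unit and method, neither was called. Tnfrsf14 had a log2 difference of 0.09 there against a log2 fold change of 0.37 by counts, and Cd40 -0.18 against -0.25 (limma adjusted p = 0.687 and 0.1005), and their FPKM overlapped between the groups. FPKM is a deposited value that takes account of both transcript length and sequencing depth.

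Per pan-T count all 10 receptors were lower in pTreg than in tTreg, as were 97.1% of all genes, with 97.6% called in either direction and 0.567% higher. The median gene shifted by a log2 fold change of -3.34 on this scale. Tnfrsf25 at -0.59 (edgeR adjusted p = 0.00585), Cd27 at -0.74 and Tnfrsf4 at -0.92 fell least. Tnfrsf18 at -1.36, Tnfrsf9 at -1.66 and Tnfrsf8 at -1.87 lay between, and Tnfrsf1a at -3.65 and Cd40 at -3.58 fell most. The median over the 10 was -1.76.

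**Figure D3:**
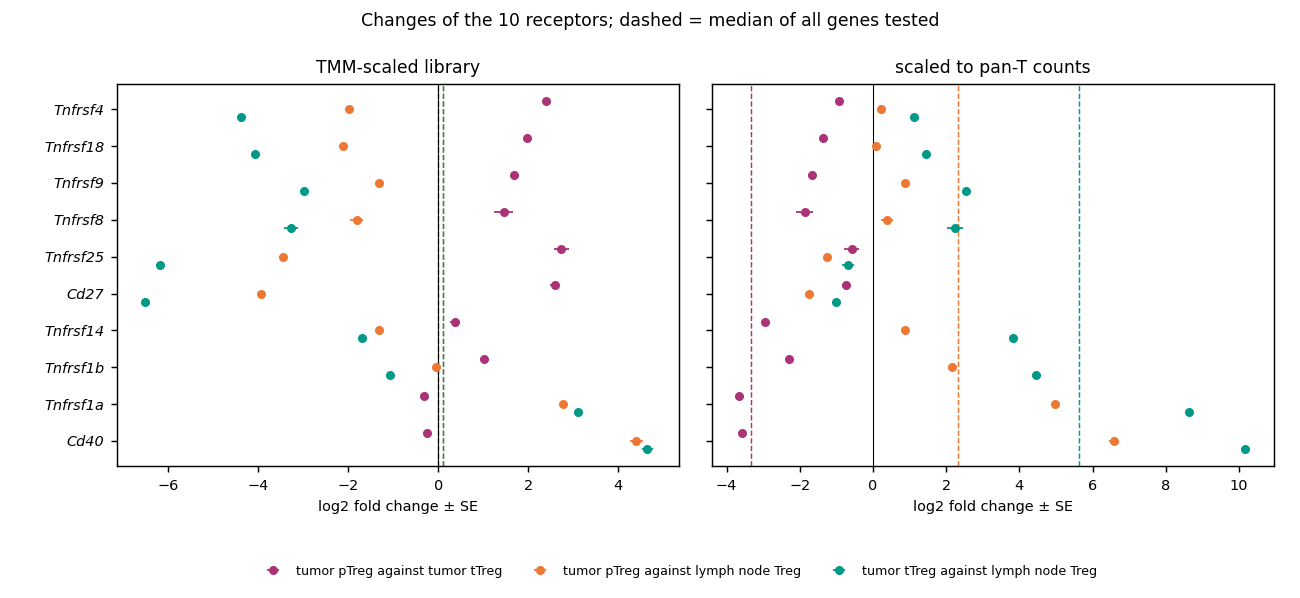
Log2 fold changes with standard errors for the 10 receptor genes in 3 comparisons, with TMM-scaled libraries on the left and libraries scaled to pan-T counts on the right, and dashed lines at the median of all genes tested. Cd27 and Tnfrsf25 lie left of 0 in every comparison with lymph node Treg on either scale, whereas Tnfrsf4, Tnfrsf18, Tnfrsf9, Tnfrsf8 and Tnfrsf14 turn from left to right between the panels there.

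Ratios between members within a library do not depend on how libraries are scaled, though they differ between FPKM and counts. By FPKM the ratio of Tnfrsf18 to Tnfrsf4 was 0.769 ± 0.0711 in lymph node libraries, 0.690 ± 0.0805 in pTreg and 0.968 ± 0.114 in tTreg. The lymph node libraries overlapped both tumor groups in this ratio, and the tumor groups did not overlap each other. By counts the same ratio ranged over 0.884 to 1.09, 0.855 to 1.07 and 1.11 to 1.45, where tTreg lay above both other groups. By FPKM Tnfrsf9 over Tnfrsf4 went from 0.407 ± 0.0364 to 0.664 ± 0.00795 and 1.14 ± 0.205, and its ranges did not overlap. Cd27 over Tnfrsf4 was 0.770 ± 0.0306 in the lymph node, but 0.190 ± 0.0209 in pTreg and 0.183 ± 0.0603 in tTreg, where the tumor ranges overlapped. Tnfrsf25 over Tnfrsf4 was 0.241 ± 0.0256, 0.0675 ± 0.0102 and 0.0578 ± 0.0104 in the same order. Tnfrsf1b over Tnfrsf1a went from 5.28 ± 0.341 in the lymph node to 0.728 ± 0.0106 in pTreg and 0.288 ± 0.00697 in tTreg, with no overlap. These ratios were not tested.

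The make-up of the receptor transcripts, per length, differed between the 3 groups in the same way. FPKM of the 10 genes summed to 999 ± 19.4 in lymph node libraries, 365 ± 6.86 in pTreg and 224 ± 6.01 in tTreg. Tnfrsf4, Tnfrsf18 and Tnfrsf9 together held 59.1 ± 0.561% of that sum in the lymph node, 42.0 ± 0.530% in pTreg and 16.8 ± 1.44% in tTreg. Cd27 and Tnfrsf25 held 27.5 ± 0.705%, 4.58 ± 0.224% and 1.29 ± 0.277%. The share of Tnfrsf1a and Tnfrsf1b was 9.44 ± 0.343%, 46.3 ± 0.817% and 70.1 ± 0.875%. In lymph node Treg the order by mean FPKM was Tnfrsf4 (272), Cd27 (209.04), Tnfrsf18 (208), Tnfrsf9 (110.3), Tnfrsf1b (79.2), Tnfrsf25 (65.6), Tnfrsf14 (35.2), Tnfrsf1a (15.04), Tnfrsf8 (3.31) and Cd40 (0.642), and among neighbours in it only Cd27 and Tnfrsf18 overlapped. In pTreg Tnfrsf1a (97.7), Tnfrsf1b (71.2) and Tnfrsf4 (65.1) led without overlap, Tnfrsf18 (44.7) and Tnfrsf9 (43.2) overlapped, and of Cd40 (14.3), Cd27 (12.3) and Tnfrsf14 (10.7) each overlapped the next. In tTreg Tnfrsf1a (122) and Tnfrsf1b (35.2) led, and Cd40 (16.3), Tnfrsf9 (13.9), Tnfrsf4 (12.2), Tnfrsf18 (11.7) and Tnfrsf14 (9.90) each overlapped the next. Tnfrsf8 was last in both tumor groups, at 0.877 and 0.324 FPKM.

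**Figure D4:**
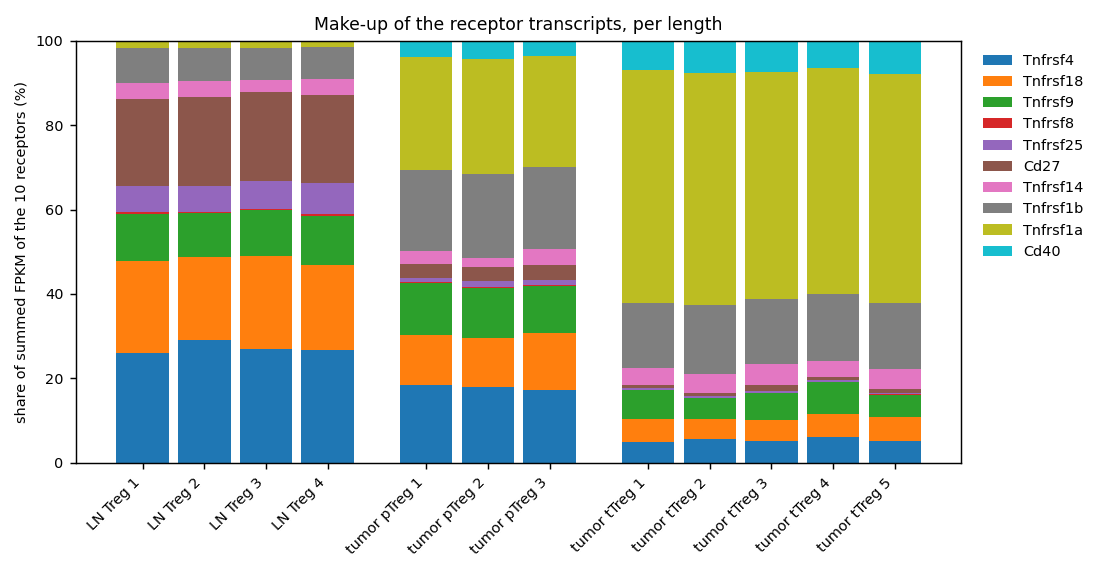
Share of the summed FPKM of the 10 receptors held by each gene, in percent, with 1 stacked bar per library. Tnfrsf4, Tnfrsf18, Tnfrsf9 and Cd27 fill most of each lymph node bar, and Tnfrsf1a takes 53.6 to 55.2% of each tumor tTreg bar.

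Foxp3 gave another yardstick. Per 100 pan-T counts it read 6.66 ± 0.188 in the lymph node, 1.52 ± 0.0357 in pTreg and 6.51 ± 0.266 in tTreg. Per 100 Foxp3 counts Tnfrsf9 read 30.9 ± 1.16 in the lymph node, 250.3 ± 7.03 in pTreg and 184 ± 12.2 in tTreg. Tnfrsf4 read 40.6 ± 1.85, 206 ± 18.3 and 91.2 ± 8.29, and Tnfrsf18 40.9 ± 3.05, 191 ± 9.04 and 114 ± 5.12. All 3 had their highest mean in pTreg on this scale, which rests on 359 to 378 Foxp3 counts a library there and 147 to 169 in tTreg. Cd27, at 46.8 ± 1.02, 61.7 ± 1.40 and 23.8 ± 3.63, and Tnfrsf25, at 12.7 ± 0.951, 23.3 ± 3.33 and 8.18 ± 1.45, also had their highest mean in pTreg and their lowest in tTreg. Tnfrsf8, at 2.34 ± 0.480, 13.4 ± 2.07 and 11.5 ± 2.39, overlapped between the tumor groups. The other 4 had their highest mean in tTreg. Tnfrsf1a read 6.17 ± 0.390, 857 ± 40.8 and 2501 ± 135, Tnfrsf1b 63.3 ± 1.91, 1233 ± 55.5 and 1419 ± 84.9, Cd40 0.160 ± 0.0548, 68.02 ± 1.23 and 189.8 ± 13.9 and Tnfrsf14 3.38 ± 0.211, 27.2 ± 1.31 and 49.2 ± 2.46. These levels were not tested. Foxp3 itself had a log2 fold change of -4.33 by CPM in pTreg against lymph node Treg, where the median gene had 0.12. Between the tumor groups it was higher in pTreg by 1.23. A gene with no change by CPM therefore rises per Foxp3 count in pTreg against the lymph node. The share of all genes that rise so was not counted, so a rise on this scale says little about a receptor. CD8 T cell markers (Cd8a and Cd8b1, both found) summed to 18.3 to 23.03 CPM in the lymph node, 30.7 to 33.9 in pTreg and 0.939 to 1.26 in tTreg. Against the lymph node Cd8a was 3.07-fold higher and Cd8b1 1.296-fold lower in pTreg (edgeR adjusted p = 1.69e-16 and 0.00143), and their part in these levels was not tested.

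Ligands of the 10 receptors, with BTLA and CD160 as partners of HVEM, were measured in the same libraries. The 13 genes listed include Ltb, the lymphotoxin beta gene, although Ltbr, the gene of its receptor, is counted with the other family genes below. Between the tumor groups 11 of 13 were higher and 1 lower in pTreg by CPM, while per pan-T count 1 was higher and 11 lower. Over all genes 26.8% were higher and 25.3% lower by CPM, and 0.567% and 97.1% per pan-T count. Cd40lg, the CD40 ligand of activated helper cells, was the gene higher on either scale (log2 fold changes 4.98 by CPM and 1.67 per pan-T count). It read 30.0 ± 1.24 CPM in lymph node libraries, 22.6 ± 0.348 in pTreg and 0.711 ± 0.161 in tTreg. Tnfsf8, the CD30 ligand gene, read 119 ± 1.89, 52.8 ± 2.91 and 14.2 ± 0.646 CPM. Against lymph node Treg 6 ligand genes rose and 6 fell in pTreg by CPM, beside 47.6% and 39.8% of all genes. In tTreg 5 rose and 7 fell, beside 48.1% and 42.3% of all genes. Per pan-T count 10 ligand genes rose in each, with 3 and 1 lower, on a scale where 91.4% and 96.8% of all genes rose. Tnf, whose product binds TNFR1 and TNFR2, went from 36.8 ± 1.14 to 143 ± 2.80 and 127 ± 4.52 CPM. Btla went from 237 ± 2.53 to 11.9 ± 1.002 and 1.54 ± 0.274 CPM and fell per pan-T count too (log2 fold changes -2.01 and -1.64).

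The ligands of GITR, OX40 and 4-1BB were singled out after their values were seen. Tnfsf18, the GITR ligand gene, had no count in lymph node Treg and read 23.2 ± 3.40 CPM in pTreg and 31.7 ± 1.76 in tTreg. Against a floor of 3 counts over all lymph node libraries it was at least 512-fold and 698-fold higher, and the list's medians of 0.12 and -2.30 were the same with that bound in place of the fitted value. Tnfsf4 read 0.815 ± 0.247, 5.16 ± 0.320 and 2.88 ± 0.106 CPM, and Tnfsf9 2.49 ± 0.253, 7.62 ± 0.672 and 3.27 ± 0.508. All 3 ligand genes were lower in pTreg than in tTreg per pan-T count, with log2 fold changes of -3.77 for Tnfsf18, -2.48 for Tnfsf4 and -2.102 for Tnfsf9.

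Other genes of the receptor family were counted apart from the 10. Of 18 listed 16 were tested. Between the tumor groups 5 were higher and 6 lower in pTreg by CPM, beside 26.8% and 25.3% of all genes. Their median log2 fold change was -0.02 against 1.57 for the 10 receptors. The 10 were picked as receptors of Treg cells, and all 18 pan-T genes were higher in pTreg by CPM. The gap between these medians therefore cannot be told apart from the choice of genes. Each of the 16 fell on the pan-T scale, as did 97.1% of all genes. Ltbr, the lymphotoxin beta receptor of myeloid and stromal cells, was close to absent from lymph node Treg (0.192 ± 0.0952 CPM) and read 79.8 ± 4.46 in pTreg and 101 ± 2.51 in tTreg. Tnfrsf12a, the TWEAK receptor gene, read 8.07 ± 1.27, 82.7 ± 4.33 and 118 ± 3.91 CPM. Tnfrsf11b, which encodes the decoy receptor osteoprotegerin, had log2 fold changes of -0.59 by CPM and -3.92 per pan-T count between the tumor groups. Fibroblast markers were mostly lower in pTreg than in tTreg by CPM, with a median log2 fold change of -2.85. Hepatoma or hepatocyte markers were lower too, in all 6 genes tested, with a median of -0.60. The part of either kind of cell in the levels of Ltbr and Tnfrsf11b was not tested. Against lymph node Treg 9 rose and 5 fell in pTreg by CPM, beside 47.6% and 39.8% of all genes. In tTreg 10 rose and 6 fell, beside 48.1% and 42.3% of all genes. The medians of 1.89 and 2.25 stayed the same with Eda2r, absent from lymph node Treg, set at its bound. Per pan-T count 14 rose and 1 fell in pTreg, and all 16 rose in tTreg, as did 91.4% and 96.8% of all genes.

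**Figure D5:**
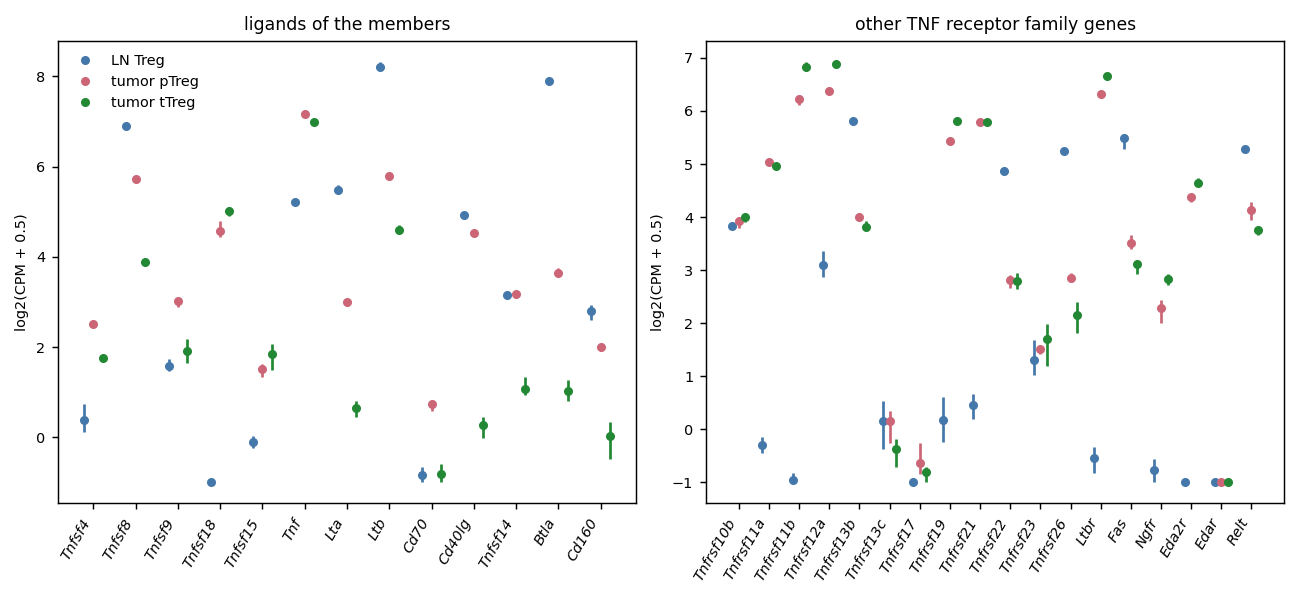
Group means of log2(CPM + 0.5) for 13 ligand or partner genes and 18 other receptor family genes, with vertical lines from the lowest to the highest library. Btla, Ltb and Lta step down from lymph node Treg to the tumor groups, whereas Tnfsf18, Ltbr and Tnfrsf11b stand high in the tumor groups alone; per pan-T count Ltb and Lta turn upward in tumor tTreg, the latter without a call.

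Among 17 adaptor and proximal signalling genes 13 were higher and 1 lower in pTreg than in tTreg by CPM, beside 26.8% and 25.3% of all genes. Each of the 17 fell on the pan-T scale, as did 97.1% of all genes. Traf1, the adaptor gene that NF-kB itself induces and that binds 4-1BB, had the largest change among them by CPM. It read 226 ± 6.77 CPM in lymph node libraries, 73.8 ± 0.774 in pTreg and 15.6 ± 1.27 in tTreg (log2 fold change 2.25 between the tumor groups by CPM and -1.08 per pan-T count). Birc2, which encodes the ubiquitin ligase cIAP1 of these complexes, read 156 ± 3.15, 98.6 ± 2.37 and 49.9 ± 0.968 CPM. Against lymph node Treg 14 of the 17 fell and 2 rose in pTreg, and 15 fell and 2 rose in tTreg, while all 17 rose per pan-T count in each. Over all genes 39.8% and 42.3% fell by CPM, and 47.6% and 48.1% rose. Per pan-T count 91.4% and 96.8% of all genes rose, so on the pan-T scale the adaptor counts are near the background, as are those of the NF-kB genes. Of 12 NF-kB genes 11 were higher and 1 lower in pTreg than in tTreg by CPM, beside the 26.8% and 25.3% of all genes. Each of the 12 fell on the pan-T scale. Tnfaip3, the A20 feedback inhibitor gene, read 2470.2 ± 10.1, 1613 ± 60.3 and 576 ± 10.7 CPM. Nfkb1 read 503 ± 6.71, 274 ± 1.28 and 171 ± 4.58 CPM. NF-kB genes split into 6 higher and 5 lower in pTreg, and 4 higher and 7 lower in tTreg, against lymph node Treg by CPM, and all 12 rose per pan-T count in each.

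Genes with the most similar group pattern were sought by the root mean square difference of centred group means of log2(CPM + 0.5), over the 3 groups. The nearest to Tnfrsf4 was Atp2a3, a calcium pump gene of lymphocytes (0.0734), and the nearest to Tnfrsf18 were Plcb4 (0.0235) and Rinl (0.0370). Wscd2 was nearest to Tnfrsf9 (0.0279), with a tTreg mean of 0.219 CPM, below the added 0.5. Itgal, the LFA-1 chain gene of leukocytes, came next to it (0.0281), with mean CPM of 933, 336 and 112 in lymph node, pTreg and tTreg libraries. Pacsin1 (0.0380) lay nearest to Cd27 and Cd200 (0.0615) to Tnfrsf25. Their tTreg means, 0.502 and 0.984 CPM, are low enough for the added 0.5 to weigh on the match. Orai1, a calcium channel gene, was nearest to Tnfrsf1b (0.0104), at 28.5, 25.1 and 12.2 CPM in the same order. Nearest to Tnfrsf14 and Tnfrsf8 were Tbc1d22b (0.0101) and Tmem191c (0.0263). The nearest to Tnfrsf1a and Cd40, Ccdc136 (0.0136) and Gpr135 (0.00537), had lymph node means below the added 0.5, and their fold changes of CPM are larger than those of the receptors. Gpr135 read 0.0607, 6.25 and 7.46 CPM, beside 0.709 ± 0.259, 13.8 ± 0.152 and 16.5 ± 0.674 for Cd40, and Ccdc136 read 0.467, 5.73 and 7.12 CPM.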

How the data were processed

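The authors deposited RSEM expected counts and FPKM for 55413 genes in 12 libraries of total RNA read on BGISEQ-500, with STAR 2.7.11a, RSEM 1.3.3 and GRCm38/mm10 named in the submitters' processing notes. The sources used here do not name their annotation. Per the labels each library is 1 column, and 0 columns were unused. Counts, whole as deposited, were tested in R 4.3.3 with edgeR 4.0.16: filterByExpr by group (15705 genes), TMM factors, all 12 libraries in 1 quasi-likelihood fit by group, Benjamini-Hochberg adjustment over all genes, calls below 0.05. Standard errors are the log2 fold change over the square root of F. A further fit used each library's summed counts of 18 pan-T genes as its size. CPM use deposited totals, mean ± SD, whereas fold changes and calls given as by CPM are those of the fit with TMM factors. Between libraries of 1 group chi-square values of the counts were 1.65 to 3.97 for each degree of freedom, above sampling noise. Alternatives used limma 3.58.1 and DESeq2 1.42.0. The test was tried on simulated counts in which few genes changed, up and down alike. Shifts as wide as those between these groups and the pan-T scale were not simulated, so it does not speak for them.

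Members and lists were chosen with earlier results of these data known. All 10 members are named. Of other lists up to 4 called genes with the smallest p per comparison, the leading 2 genes of a marker list, and the 2 genes nearest in pattern (at least 5 CPM in a group) may be named. Promoter sequences come from RefSeq (GRCm38.p6), in which 9 of 10 members matched.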

Additional observations from a re-analysis of the deposited data

Results flagged for a closer look

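Cd27 in lymph node replicate 1 read 198.7 CPM, apart from 207.8 to 209.4 in the other 3 lymph node libraries. The gap to the nearest library was 0.850 of the group's range. It was the only such case in 40 checks of a member in a group of 4 or 5 libraries, by CPM or per pan-T count, and chance gives about 1 in 20.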

How the results depend on the processing

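The number of genes called stayed within 1.5 times its value under each alternative run, and no receptor changed direction. With each library left out in turn, genes called between pTreg and tTreg ranged from 7151 to 8206 (8184 with all libraries) by CPM and from 15222 to 15558 (15331 with all) per pan-T count. For pTreg against lymph node Treg the ranges were 13506 to 13727 (13735) and 14931 to 15057 (14986), and for tTreg against the lymph node 13971 to 14425 (14187) and 15248 to 15606 (15353). Of 327 receptor values by CPM outside leave-one-out 313 kept their call, as did 358 of 360 with a library left out. Per pan-T count 89 of 90 and 355 of 360 did so. The exceptions were Tnfrsf1b, Tnfrsf8 and Tnfrsf18 in pTreg against lymph node Treg, and Cd40 and Tnfrsf14 between the tumor groups. Tnfrsf1b was called lower in 8 alternatives (edgeR, DESeq2 or limma adjusted p from 1.73e-05 to 0.0438), and without lymph node replicate 3 (adjusted p = 0.0375) or pTreg replicate 2 (adjusted p = 0.0397). Cd40 and Tnfrsf14 lost their calls in all 3 FPKM fits with limma, at adjusted p from 0.0884 to 0.227 and 0.671 to 0.701. The cause was not tested.

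Replicate numbers were also fitted as a block. With the replicate block 7495, 13602 and 14065 genes were called by CPM, and 15299, 14960 and 15329 per pan-T count, for pTreg against tTreg, pTreg against lymph node Treg, and tTreg against lymph node Treg, and no receptor's call changed. Over 11053 genes the deviations of libraries that share a number correlated between -0.0694 and 0.0649, so the numbers were not taken as pairs. Depth limited Tnfrsf25 and Tnfrsf8 in tTreg and Cd40 in lymph node Treg, which rest on 11 to 15, 15 to 22 and 7 to 15 counts a library.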
